A study of Mus musculus with 15 samples.

Results

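The 10 genes described here make, consume or depend on nicotinamide adenine dinucleotide (NAD): the synthesis genes Nampt, Nmnat1 and Naprt, the NAD-consuming genes Cd38 and Parp1, and the sirtuin genes Sirt1, Sirt2, Sirt3, Sirt6 and Sirt7. They were chosen by symbol, and all 10 were found among the 56979 Ensembl gene identifiers of the deposited table. The table holds RNA sequencing of polyadenylated RNA from wild-type mouse bone marrow cells, in 15 libraries of 5 groups with 3 libraries each. In bone marrow-derived macrophages (BMDM) the groups were LPS_NZM (treated with LPS and NZM), LPS (treated with lipopolysaccharide, a bacterial cell wall component that activates macrophages) and Control (vehicle). In BMSC, a bone marrow cell type that the labels give only by this abbreviation, they were Aged_NZM (treated with H2HO and NZM) and Aged (treated with H2HO). NZM was added after a pretreatment with the model drug, and the labels do not spell out NZM or H2HO. They also do not say whether the libraries of a group came from separate animals or cultures. The p-values below therefore weigh group differences only against the spread among these libraries, and that spread may be technical.

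NAD carries electrons in metabolism and is also used up as a substrate. Mammalian cells recycle it mainly by salvage: Nampt, the rate-limiting enzyme, turns nicotinamide into nicotinamide mononucleotide, and Nmnat1, in the nucleus, turns this into NAD, while Naprt opens a separate route from nicotinic acid. Cd38, a surface glycohydrolase induced in activated macrophages, and Parp1, which attaches ADP-ribose chains to proteins at DNA breaks, both split NAD and release nicotinamide, and sirtuins use NAD to remove acyl groups from proteins.

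The sequences upstream of the transcription start are shown for the 3 genes with the widest range over the groups (Cd38, Nampt and Parp1) and for Sirt1, the gene with the largest fall in BMSC. They are the 250 bases before the start in RefSeq's GRCm38.p6 assembly, written 5′ to 3′ on the gene's strand, which is an older build than the GRCm39 named for the expression values. The Cd38 window lies at chr5:43868559-43868808 (plus strand), the Nampt window at chr12:32820085-32820334 (plus strand), the Parp1 window at chr1:180568641-180568890 (plus strand) and the Sirt1 window at chr10:63339036-63339285 (minus strand). Capitals mark matches, on either strand, to any of the motifs searched: a kappaB site (GGG, any 2 bases, TTTCC), an AP-1 site (TGANTCA), an interferon response element (GAAA, any 2 bases, GAAA), an E-box (CACGTG), a GC box (GGGCGG) and a TATA box (TATAAA).
Cd38: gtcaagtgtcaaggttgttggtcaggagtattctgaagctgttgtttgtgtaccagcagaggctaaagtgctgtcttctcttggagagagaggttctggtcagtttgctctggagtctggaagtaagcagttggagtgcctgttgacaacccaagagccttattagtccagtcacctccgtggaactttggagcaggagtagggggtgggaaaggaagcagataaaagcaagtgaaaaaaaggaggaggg
Nampt: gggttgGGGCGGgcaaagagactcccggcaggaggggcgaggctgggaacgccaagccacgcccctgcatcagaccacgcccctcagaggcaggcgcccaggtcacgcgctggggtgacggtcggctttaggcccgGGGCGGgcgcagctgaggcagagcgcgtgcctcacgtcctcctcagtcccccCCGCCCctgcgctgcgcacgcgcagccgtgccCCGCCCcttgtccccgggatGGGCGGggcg
Parp1: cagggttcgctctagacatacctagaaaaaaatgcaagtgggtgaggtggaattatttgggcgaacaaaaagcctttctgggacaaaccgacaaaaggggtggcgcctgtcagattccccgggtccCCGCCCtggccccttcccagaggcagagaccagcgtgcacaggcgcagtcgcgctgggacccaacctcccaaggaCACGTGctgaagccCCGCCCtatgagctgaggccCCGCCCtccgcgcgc
Sirt1: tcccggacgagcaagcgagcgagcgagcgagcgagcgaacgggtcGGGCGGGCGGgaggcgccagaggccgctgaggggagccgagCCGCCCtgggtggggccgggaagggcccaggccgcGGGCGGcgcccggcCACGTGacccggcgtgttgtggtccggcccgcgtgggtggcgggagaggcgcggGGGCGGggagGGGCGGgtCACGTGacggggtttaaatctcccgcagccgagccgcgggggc

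The Cd38 window differed from the other 3 in composition. Its GC content was 48.8% with 1 CpG dinucleotide and no match to the motifs, against a median of 52.4% and 6 CpG dinucleotides over 32851 RefSeq mouse windows of the same length. Among the windows not shown, that of Sirt7 also had 48.8% GC, with 12 CpG dinucleotides. Sirt3 and Sirt6 each had a window without a match. Nampt had 75.6% GC, 27 CpG dinucleotides and 5 GC boxes. Parp1 had 61.6% GC, 16 CpG dinucleotides, 3 GC boxes and 1 E-box. Sirt1 had 79.2% GC, 39 CpG dinucleotides, 2 E-boxes and 6 GC boxes, of which 2 overlapped. Of all windows, 1.41% held the kappaB motif, 6.75% the AP-1 motif, 2.98% the interferon response element, 6.02% the E-box, 32.7% the GC box and 12.4% the TATA box. A match is a run of letters and not a shown binding site, and 9 of the 10 genes had a window among those searched (all but Naprt).

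Values are TPM, a length-corrected share of each library's transcripts that sums to the same total in every library, so the sequencing depth is unknown. Between 21360 and 23398 identifiers were above 0 in a library. The summed TPM of 7 macrophage markers lay at 21935 to 22440 in LPS_NZM, 20011 to 20183 in LPS and 26378 to 28723 in Control, and at only 18.6 to 21.8 in Aged_NZM and 28.2 to 32.7 in Aged. The summed TPM of 9 stromal markers did not separate the cell types, with 2396 to 2493 in LPS_NZM, 2247 to 2465 in LPS, 2788 to 3009 in Control, 4145 to 4231 in Aged_NZM and 1256 to 1356 in Aged. Single stromal markers went both ways. By group means, Pdgfra, Col3a1 and Cxcl12 were higher in both BMSC groups than in every BMDM group. Lepr, Eng and Col1a1 were lower in both, and Col1a2, Pdgfrb and Thy1 were mixed. Pdgfra averaged 212.3 TPM in Aged_NZM and 91.4 TPM in Aged, against at most 6.72 TPM in a BMDM group. In BMSC, Lepr, a receptor gene of marrow stromal cells, was at most 0.64 TPM. Neutrophil markers summed to 1934 to 2323 TPM in LPS_NZM, 2221 to 2444 TPM in LPS and 1488 to 1682 TPM in Control, and mast cell and basophil markers to 113.3 to 199.9 TPM in LPS_NZM, 207.5 to 232.8 TPM in LPS and 4.58 to 513.9 TPM in Control, with the low extreme in Control replicate 1 and the high extreme in Control replicate 2. The higher mast cell and basophil sum in LPS than in LPS_NZM came with Hdc, which averaged 76.0 TPM in LPS and 5.92 TPM in LPS_NZM. The other 5 of these 6 markers were not called between LPS_NZM and LPS, and their libraries overlapped. In these bulk libraries, fewer cells of a type and less RNA per cell cannot be told apart, and the part of other cell types in the changes below was not tested.

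Among the synthesis genes, Nampt had the highest level in every group, and LPS stood apart from all others. Nampt (ENSMUSG00000020572) had 98.5, 104.8 and 105.9 TPM in the LPS_NZM libraries, 408, 408.4 and 399.3 TPM in LPS and 96.9, 98.0 and 98.6 TPM in Control. It had 47.5, 53.2 and 52.7 TPM in Aged_NZM and 68.1, 67.6 and 69.4 TPM in Aged. Each LPS library was higher than any library of another group, the LPS_NZM and Control libraries overlapped, and both BMSC groups were below all BMDM libraries without overlapping each other.

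Nmnat1 (ENSMUSG00000028992), the nuclear NAD-forming enzyme gene, stayed within a narrow band. It had 17.0, 13.1 and 12.96 TPM in LPS_NZM, 8.77, 10.2 and 10.3 TPM in LPS and 10.3, 13.5 and 9.71 TPM in Control, and 11.2, 11.1 and 9.43 TPM in Aged_NZM against 15.2, 14.1 and 13.5 TPM in Aged. Ordered by their means, LPS_NZM, Aged, Control, Aged_NZM and LPS each overlapped the next, while the 2 BMSC groups did not overlap and neither did LPS_NZM and LPS. Naprt (ENSMUSG00000022574), which starts NAD formation from nicotinic acid, was the lowest of the 10 genes in BMDM, at 2.55, 2.35 and 2.41 TPM in LPS_NZM, 1.33, 1.60 and 1.47 TPM in LPS and 3.66, 3.0 and 3.54 TPM in Control. In BMSC it had 8.59, 8.95 and 8.92 TPM in Aged_NZM against 6.43, 5.36 and 4.25 TPM in Aged. No group overlapped its neighbour in the order Aged_NZM, Aged, Control, LPS_NZM and LPS. The mean ratio of Nampt to Naprt TPM was 42.4 in LPS_NZM, 278 in LPS, 29.0 in Control, 5.79 in Aged_NZM and 13.2 in Aged.

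Cd38 (ENSMUSG00000029084) had the widest range of the 10 genes. It had 15.4, 15.8 and 17.7 TPM in LPS_NZM, 368.7, 358.4 and 362.6 TPM in LPS and 7.06, 6.53 and 8.61 TPM in Control. In BMSC it was at 0.03, 0.06 and 0 TPM in Aged_NZM and 0.23, 0.19 and 0.16 TPM in Aged, under the filter of at least 1 TPM in 3 libraries. None of the 5 groups overlapped another, though both BMSC groups were near 0 and the gap between them was not tested. Parp1 (ENSMUSG00000026496), the main enzyme of poly-ADP-ribosylation, had its lowest level where Cd38 had its highest: 98.4, 98.4 and 105.7 TPM in LPS_NZM, 24.8, 23.8 and 25.5 TPM in LPS and 105.0, 111.5 and 106.8 TPM in Control. The BMSC levels of Parp1 lay between these, with 40.3, 38.8 and 37.7 TPM in Aged_NZM and 58.8, 55.8 and 54.9 TPM in Aged. The LPS_NZM and Control libraries overlapped, and no other neighbours in the order of the 5 groups did. In LPS the Cd38 level was 0.896 ± 0.0164 of that of Nampt and 14.7 ± 0.426 times that of Parp1. In LPS_NZM these ratios were 0.158 ± 0.00809 and 0.161 ± 0.00540, and in Control 0.0756 ± 0.0106 and 0.0688 ± 0.0111 (SD, n = 3 each).

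Sirt2 (ENSMUSG00000015149), a mainly cytoplasmic deacetylase gene, was the highest sirtuin in every group and the least variable of the 10 genes. It had 107.6, 104.1 and 104.0 TPM in LPS_NZM, 91.4, 91.4 and 93.6 TPM in LPS, 102.9, 103.4 and 104.5 TPM in Control, 92.3, 86.6 and 88.0 TPM in Aged_NZM and 82.8, 79.9 and 79.9 TPM in Aged. Sirt7 (ENSMUSG00000025138), a nucleolar sirtuin, followed in BMDM with 65.6, 60.7 and 66.8 TPM in LPS_NZM, 33.6, 33.8 and 36.2 TPM in LPS and 61.5, 57.2 and 61.0 TPM in Control. In BMSC, Sirt7 had 23.8, 21.8 and 22.0 TPM in Aged_NZM and 29.5, 30.1 and 26.9 TPM in Aged. For both genes LPS_NZM and Control overlapped, while LPS lay below them and the 2 BMSC groups stood apart from each other. For Sirt2 the LPS and Aged_NZM libraries also overlapped.

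Sirt1 (ENSMUSG00000020063), a nuclear deacetylase gene, had 9.30, 9.70 and 11.9 TPM in LPS_NZM, 7.60, 7.36 and 7.17 TPM in LPS and 13.99, 16.7 and 14.8 TPM in Control, with no overlap among the 3 groups. It had 9.13, 10.9 and 10.7 TPM in Aged_NZM, all below the 21.5, 20.6 and 20.2 TPM in Aged. Sirt3 (ENSMUSG00000025486), the mitochondrial deacetylase gene, had 6.03, 6.57 and 6.43 TPM in LPS_NZM, 2.53, 2.55 and 3.40 TPM in LPS and 6.99, 9.67 and 6.97 TPM in Control, again with no overlap, and 12.7, 13.6 and 14.5 TPM in Aged_NZM and 14.7, 14.04 and 13.1 TPM in Aged, which overlapped. Sirt6 (ENSMUSG00000034748), a chromatin-bound sirtuin, did not separate the BMDM groups. It had 13.3, 15.2 and 14.3 TPM in LPS_NZM, 13.3, 15.5 and 15.3 TPM in LPS and 13.2, 14.2 and 15.5 TPM in Control, but 24.7, 22.2 and 22.7 TPM in Aged_NZM, all below the 31.3, 30.8 and 29.9 TPM in Aged. The 5 sirtuins summed to 200.4 ± 3.70 TPM in LPS_NZM, 151.5 ± 3.66 TPM in LPS, 200.9 ± 2.11 TPM in Control, 158.5 ± 3.78 TPM in Aged_NZM and 175.0 ± 4.97 TPM in Aged (mean ± SD, n = 3 each). Sirt2 made up 52.5% of this sum in LPS_NZM, 60.8% in LPS, 51.6% in Control, 56.1% in Aged_NZM and 46.2% in Aged. The sums are of TPM as deposited, where all genes tested had a median log2 change of -0.48 in LPS against Control. In LPS_NZM against LPS that median was 0.40.

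**Figure D1:**
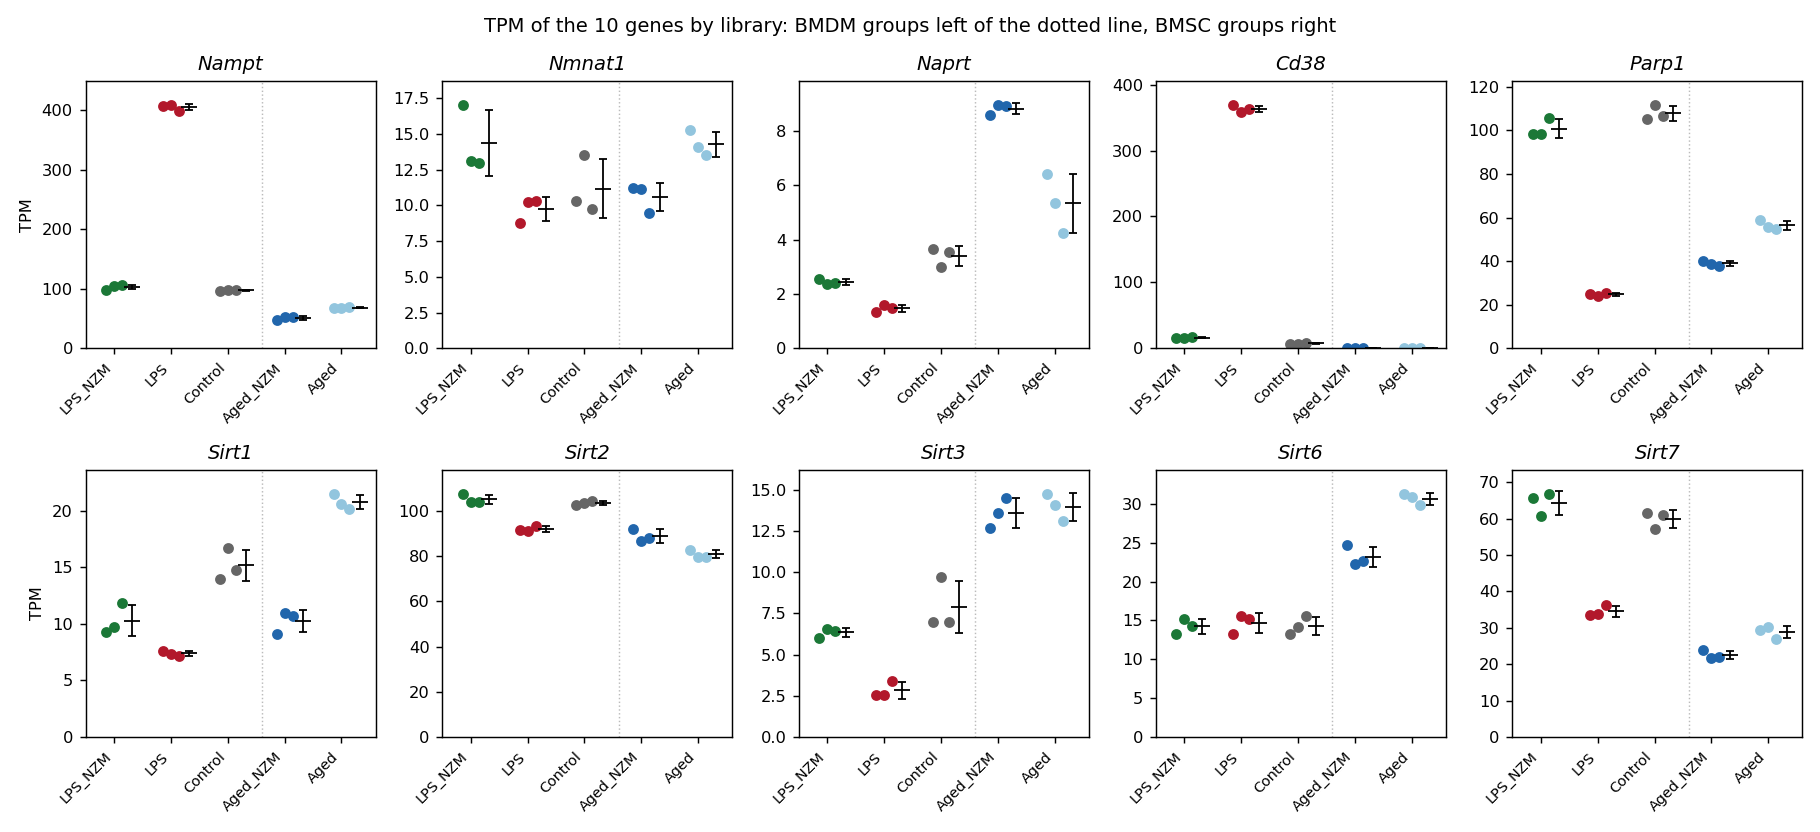
TPM of each of the 10 genes (vertical axes, each from 0) in every library of the 5 groups; points are libraries, and the bar and whiskers beside them are the mean and SD of 3 libraries. Nampt and Cd38 stand out as high in LPS and Parp1, Sirt3 and Sirt7 as low in LPS among the BMDM groups, and Cd38 is near 0 in both BMSC groups.

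LPS against Control asks what lipopolysaccharide changed in BMDM. Nampt and Cd38 rose, and Parp1, Naprt, Sirt1, Sirt2, Sirt3 and Sirt7 fell, on the deposited scale. Cd38 averaged 363.2 ± 5.17 TPM in LPS and 7.40 ± 1.08 TPM in Control (SD, n = 3 each), 49.1 times as much, a log2 change of 5.45 (SE 0.08, limma adjusted p = 8.16e-12). This ranked 35 from the top of 14486 genes tested. Nampt averaged 405.2 ± 5.10 TPM in LPS and 97.8 ± 0.859 TPM in Control, 4.14 times as much, a log2 change of 2.04 (SE 0.03, limma adjusted p = 8.45e-12). Parp1 averaged 24.7 ± 0.835 TPM in LPS and 107.8 ± 3.35 TPM in Control, 4.36-fold lower (log2 change -2.08, SE 0.04, limma adjusted p = 5.22e-11), and ranked 262 from the bottom.

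The other falls were smaller. Sirt3 changed by -1.21 on the log2 scale (SE 0.13, limma adjusted p = 1.32e-05), Sirt1 by -0.94 (SE 0.10, limma adjusted p = 6.69e-06), Naprt by -0.83 (SE 0.10, limma adjusted p = 3.35e-05) and Sirt7 by -0.78 (SE 0.05, limma adjusted p = 2.38e-07). For Sirt2 the change was -0.17 (limma adjusted p = 3.29e-04). Nmnat1, at -0.17 (limma adjusted p = 0.267), and Sirt6, at 0.03 (limma adjusted p = 0.725), did not pass, and their libraries overlapped between LPS and Control. Changes are on log2(TPM + 1), which understates those of low genes such as Naprt.

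Of the 10 genes 8 changed, where 80.8% of all 14486 genes tested were called (15.2% higher and 65.6% lower), and 8 did not overlap between the groups, where 81.8% of all genes did not. The share of genes called was therefore like that of the table, and the median change of the 10 genes, -0.47, was close to the median of all genes, -0.48. Because most genes were lower in LPS, each library was also centred on its own median. Centring moved every log2 change by 0.55 in LPS against Control, by -0.46 in LPS_NZM against LPS, by 0.08 in LPS_NZM against Control and by 0.16 in Aged_NZM against Aged. Rises were 18.8% of the calls of LPS against Control as deposited and 55.7% after centring.

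After centring, Cd38 (5.99) and Nampt (2.59) were still higher, and Parp1 (-1.53), Sirt3 (-0.66), Sirt1 (-0.40), Naprt (-0.29, limma adjusted p = 0.0358) and Sirt7 (-0.23) still lower, in LPS than in Control. Sirt2 turned from a fall to a rise of 0.38, and Sirt6 (0.58) and Nmnat1 (0.38, limma adjusted p = 0.0311) were then called higher. That gave 5 genes higher and 5 lower, where 65.5% of all genes were called (36.5% higher and 29.1% lower). Leaving out any 1 of the 6 libraries changed no call among the 10 genes, only the sign of the Sirt6 change, which was called in no such fit.

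**Figure D2:**
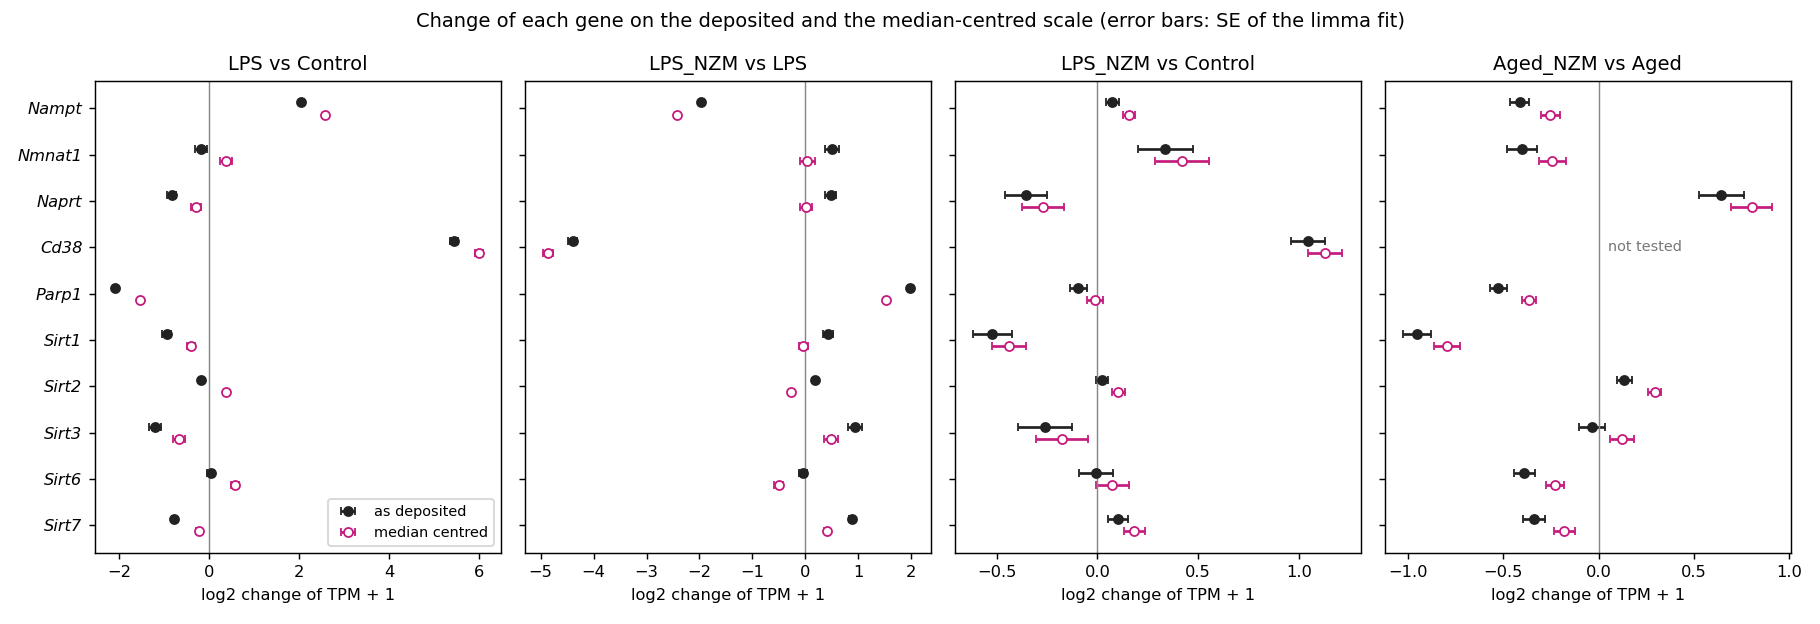
Log2 change of TPM + 1 (horizontal axes, a scale of its own in each panel) for each gene in 4 comparisons; filled points are values as deposited, open points those after median centring, and error bars the SE of the limma fit. Cd38, Nampt and Parp1 lie far from 0 in LPS against Control and on the opposite side in LPS_NZM against LPS on both scales, whereas Sirt2 crosses 0 between the scales in both.

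Genes of the same pathway, taken from lists by role, gave 18 higher, 34 lower and 1 not called of 53 tested in LPS against Control, or 20 higher and 20 lower after centring, with a median log2 change of -0.61. All genes tested had a median of -0.48, with 15.2% called higher and 65.6% lower (36.5% and 29.1% after centring). By the naming rule, the largest rises were those of Sod2, a mitochondrial superoxide dismutase whose protein is a Sirt3 substrate (536.8 TPM in LPS against 26.0 TPM in Control, a change of 4.31 on the log2 scale), Kynu, kynureninase of the tryptophan route to NAD (9.29 TPM in LPS, 0.397 TPM in Control, 2.88), and Pnp, purine nucleoside phosphorylase (3083 TPM in LPS, 569.9 TPM in Control, 2.43). The largest falls were those of Apex1, the base excision repair endonuclease gene (23.5 TPM in LPS and 88.1 TPM in Control, -1.86), Nmnat3 (2.57 TPM in LPS, 9.41 TPM in Control, -1.54), which forms NAD in mitochondria, and the flap endonuclease gene Fen1 (14.3 TPM in LPS, 43.0 TPM in Control, -1.53). All 6 kept direction and call after centring.

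Other NAD-consuming genes were also tested. Of 13 PARP family genes tested besides Parp1, 8 rose and 5 fell, or 8 rose and none fell after centring. Their median log2 change was 0.56, where that of all genes was -0.48 and 15.2% of all genes were called higher (36.5% after centring). Several PARP genes that interferon is known to induce were among the risers, with Parp14 at 557.4 ± 6.33 TPM in LPS and 127.9 ± 5.83 TPM in Control, Parp12 at 418.6 ± 1.97 TPM in LPS and 102.7 ± 4.35 TPM in Control, and Parp9 at 181.6 ± 3.97 TPM in LPS and 49.0 ± 0.344 TPM in Control. Parp2, the closest relative of Parp1 in DNA repair, was lower in LPS, at 22.2 ± 0.770 TPM against 34.0 ± 1.098 TPM in Control (log2 change -0.60, not called after centring at -0.05). Bst1, the paralogue of Cd38 and its neighbour on chromosome 5, rose to 133.2 ± 4.90 TPM in LPS, against 24.1 ± 0.707 TPM in Control (log2 change 2.42).

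The partners of Parp1 in single-strand break repair gave 7 falls and 1 rise of 8 (6 and 1 after centring), the exception being the polymerase gene Polb (log2 change 0.23). All 5 genes of ADP-ribose removal fell, of which 2 were called lower after centring. Sirt4 and Sirt5, mitochondrial sirtuins outside the 10 genes, changed by -0.93 and -1.23, so that of all 7 sirtuins 6 fell and none rose, or 5 fell and 2 rose after centring. Of the 9 other salvage and import genes 3 rose and 6 fell. For comparison, 65.6% of all genes tested were called lower and 15.2% higher, or 29.1% lower and 36.5% higher after centring.

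LPS_NZM against LPS compares LPS-treated BMDM with and without NZM. Cd38 and Nampt fell and Parp1 rose, each by 1.965 or more on the log2 scale. Cd38 fell to 16.3 ± 1.21 TPM in LPS_NZM, against 363.2 ± 5.17 TPM in LPS (22.3-fold lower, log2 change -4.40, SE 0.08, limma adjusted p = 3.17e-11). Nampt fell to 103.1 ± 3.97 TPM in LPS_NZM, against 405.2 ± 5.10 TPM in LPS (3.93-fold lower, log2 change -1.97, SE 0.03, limma adjusted p = 1.11e-11). Parp1 rose to 100.8 ± 4.23 TPM in LPS_NZM, against 24.7 ± 0.835 TPM in LPS (4.08 times as much, log2 change 1.98, SE 0.04, limma adjusted p = 7.29e-11). The LPS libraries are shared with the comparison above, so the 2 sets of changes are not independent of each other.

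Among the sirtuins Sirt3 rose by 0.95 on the log2 scale (SE 0.13, limma adjusted p = 8.92e-05), Sirt7 by 0.88 (SE 0.05, limma adjusted p = 9.28e-08), Sirt1 by 0.42 (SE 0.10, limma adjusted p = 0.00227) and Sirt2 by 0.19 (SE 0.03, limma adjusted p = 1.48e-04). Nmnat1 rose by 0.51 (SE 0.13, limma adjusted p = 0.00607) and Naprt by 0.48 (SE 0.10, limma adjusted p = 0.00179). Sirt6, at -0.04 (limma adjusted p = 0.671), did not pass. That made 7 higher and 2 lower of 10, where 77.3% of all genes were called (60.4% higher and 16.9% lower), and 9 did not overlap, where 79.8% of all genes did not. The median change was 0.45 for the 10 genes and 0.40 for all genes.

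Centring left Parp1 (1.52), Sirt3 (0.48) and Sirt7 (0.41) higher and Cd38 (-4.86) and Nampt (-2.43) lower in LPS_NZM than in LPS. Nmnat1 (0.04), Naprt (0.02) and Sirt1 (-0.04) were then not called, Sirt2 turned to a fall of -0.27 and Sirt6 was called lower at -0.50. That made 3 higher and 4 lower, where 65.1% of all genes were called (29.8% higher and 35.3% lower), and rises made up 45.7% of all calls in place of 78.2%. Without any 1 library the 10 calls were unchanged, and only the sign of the uncalled Sirt6 change turned.

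Of 53 other pathway genes 28 rose and 17 fell with NZM, or 16 rose and 24 fell after centring, with a median log2 change of 0.40, equal to that of all genes to 2 decimals. The largest rises were those of Apex1 (119.2 TPM in LPS_NZM and 23.5 TPM in LPS, log2 change 2.30), Tdp1, which repairs DNA ends blocked by topoisomerase (19.3 TPM in LPS_NZM, 6.08 TPM in LPS, 1.52), and Nmnat3 (9.27 TPM in LPS_NZM, 2.57 TPM in LPS, 1.51). The largest falls were those of Sod2 (44.3 TPM in LPS_NZM and 536.8 TPM in LPS, -3.57), Bst1 (16.9 TPM in LPS_NZM, 133.2 TPM in LPS, -2.91) and Parp14 (82.1 TPM in LPS_NZM, 557.4 TPM in LPS, -2.75). Besides Parp1, 3 PARP family genes rose and 8 fell of 13, or 1 rose and 11 fell after centring, with a median of -1.02. Of the 8 repair partners 7 rose and 1, Polb, fell (5 and 1 after centring). Of the 5 genes of ADP-ribose removal all rose, 3 of them also after centring. For comparison, 60.4% of all genes tested were called higher and 16.9% lower, or 29.8% higher and 35.3% lower after centring. Parp2 was at 34.3 ± 1.60 TPM in LPS_NZM and 22.2 ± 0.770 TPM in LPS (log2 change 0.61, and 0.14 after centring, called on both scales).

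**Figure D3:**
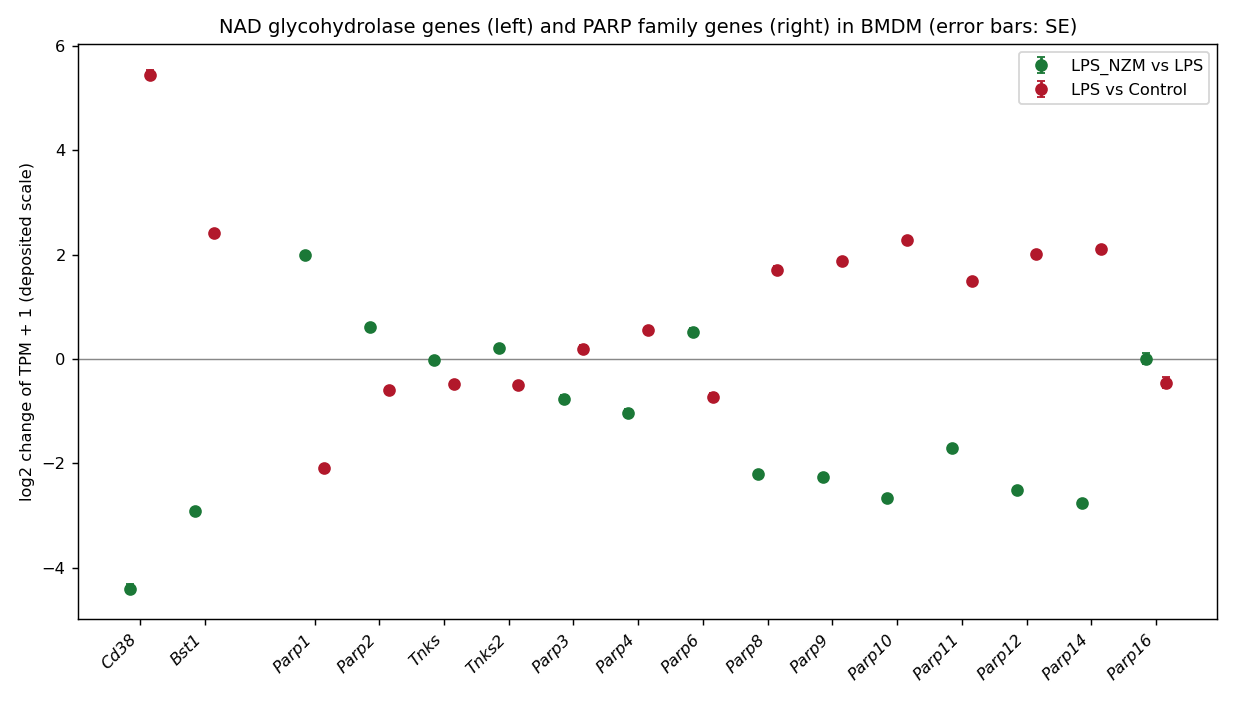
Log2 change of TPM + 1 on the deposited scale for the NAD glycohydrolase genes and the PARP family genes tested in BMDM, in LPS_NZM against LPS (green) and LPS against Control (red), with SE bars mostly within the points. The 2 comparisons share the LPS libraries; Parp1 lies at -2.08 in LPS against Control, and Parp8, Parp9, Parp10, Parp11, Parp12 and Parp14 lie between 1.498 and 2.28.

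LPS_NZM against Control asks what still differed from vehicle with both treatments. Cd38 was higher, and Sirt1 and Naprt were lower, than in Control. Cd38 averaged 16.3 ± 1.21 TPM in LPS_NZM and 7.40 ± 1.08 TPM in Control, 2.20 times as much (log2 change 1.05, SE 0.08, limma adjusted p = 5.69e-06), and the libraries did not overlap. Sirt1 averaged 10.3 ± 1.37 TPM in LPS_NZM and 15.2 ± 1.39 TPM in Control (log2 change -0.52, SE 0.10, limma adjusted p = 0.00142). Naprt averaged 2.44 ± 0.103 TPM in LPS_NZM and 3.40 ± 0.352 TPM in Control (log2 change -0.35, SE 0.10, limma adjusted p = 0.0183). The Naprt call was lost after centring (adjusted p = 0.0594) and without LPS_NZM replicate 2 (adjusted p = 0.0579), Control replicate 1 (adjusted p = 0.0630) or Control replicate 3 (adjusted p = 0.0567).

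Nampt and Parp1 were near Control in LPS_NZM. Nampt averaged 103.1 ± 3.97 TPM in LPS_NZM and 97.8 ± 0.859 TPM in Control (log2 change 0.07, SE 0.03, limma adjusted p = 0.0841) and Parp1 100.8 ± 4.23 TPM in LPS_NZM and 107.8 ± 3.35 TPM in Control (log2 change -0.10, SE 0.04, limma adjusted p = 0.0975). Neither passed, which does not show that the levels were equal, and the Nampt change passed after centring (0.16, adjusted p = 0.00194) and without LPS_NZM replicate 1 (adjusted p = 0.0197). Parp1 passed without LPS_NZM replicate 3 (adjusted p = 0.0389) and under quantile normalization (adjusted p = 0.0184). Nmnat1 was at 0.34 (limma adjusted p = 0.0644), and passed after centring (0.42, adjusted p = 0.0274), without Control replicate 2 (adjusted p = 0.0137) and in a fit of all 15 libraries (adjusted p = 0.0365). For the other sirtuins the changes were 0.02 (Sirt2), -0.26 (Sirt3), -0.01 (Sirt6) and 0.10 (Sirt7), none of which passed.

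Of the 10 genes 3 were thus called, where 47.7% of all genes were (18.6% higher and 29.1% lower), and 4 did not overlap, where 55.9% of all genes did not. After centring Cd38 (1.13), Nampt, Nmnat1, Sirt2 (0.10) and Sirt7 (0.18) were called higher and Sirt1 (-0.44) lower, where 47.0% of all genes were called (24.9% higher and 22.0% lower), and rises made up 53.1% of all calls in place of 39.0%. Of 53 other pathway genes 9 were higher and 27 lower (12 and 24 after centring), with a median of -0.25 where that of all genes was -0.07, including 12 of 13 PARP family genes that were lower (10 after centring) and none higher. The largest rises were those of Sod2 (44.3 TPM in LPS_NZM against 26.0 TPM in Control, 0.75 on the log2 scale), Kynu (1.29 TPM in LPS_NZM, 0.397 TPM in Control, 0.70) and the NAD kinase gene Nadk (217.5 TPM in LPS_NZM, 148.5 TPM in Control, 0.55). The largest falls were those of the mitochondrial NAD kinase gene Nadk2 (4.87 TPM in LPS_NZM, 8.67 TPM in Control, -0.72), Haao of the tryptophan route (1.11 TPM in LPS_NZM, 2.36 TPM in Control, -0.69) and Nt5e, the surface nucleotidase CD73 (3.30 TPM in LPS_NZM, 5.93 TPM in Control, -0.69). Bst1, unlike Cd38, was lower in LPS_NZM than in Control, at 16.9 ± 0.427 TPM against 24.1 ± 0.707 TPM (log2 change -0.49).

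Cd38 to Bst1 ratios differed accordingly, with a mean of 0.964 ± 0.0473 in LPS_NZM, 2.73 ± 0.0958 in LPS and 0.307 ± 0.0475 in Control (SD, n = 3 each). An antisense transcript inside Cd38, Gm16015, which shares no exon with it, was at 0.72, 0.45 and 0.98 TPM in LPS_NZM, 13.5, 12.7 and 13.7 TPM in LPS and 0, 0 and 0.23 TPM in Control. Its groups are ordered as those of Cd38. The kit marks strand, but the counting setting is not given in the sources used here, so reads of the pair may not be fully separate.

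Genes whose BMDM pattern was most like that of Cd38, Nampt or Parp1, by Pearson's r of log2(TPM + 1) over the 9 BMDM libraries among 9702 genes, all followed the split between LPS and the rest. For Cd38 they were Ptgs2, the cyclooxygenase-2 gene (76.6 TPM in LPS_NZM, 1043 TPM in LPS and 38.6 TPM in Control), B3gnt2 and Lcp2. For Nampt they were Gch1, the first enzyme of tetrahydrobiopterin synthesis (23.2 TPM in LPS_NZM, 180.2 TPM in LPS and 21.7 TPM in Control), Plagl2 and Cfb, and for Parp1 the sorting nexin genes Snx30 (28.2 TPM in LPS_NZM, 3.87 TPM in LPS and 31.5 TPM in Control) and Snx24, and Slc37a2. All r were at least 0.999, and the libraries share 3 groups, so r here describes group levels. 

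Aged_NZM against Aged asks what NZM changed in H2HO-treated BMSC. Of the 9 genes tested, Sirt1 had the largest fall and Naprt the largest rise, Sirt1 changing more as deposited and the 2 by about as much after centring (-0.79 for Sirt1 and 0.80 for Naprt). Sirt1 averaged 10.3 ± 0.980 TPM in Aged_NZM and 20.7 ± 0.652 TPM in Aged, 2.02-fold lower (log2 change -0.95, SE 0.07, limma adjusted p = 2.24e-06). Naprt averaged 8.82 ± 0.200 TPM in Aged_NZM and 5.35 ± 1.09 TPM in Aged, 1.65 times as much (log2 change 0.64, SE 0.12, limma adjusted p = 8.08e-04). Parp1 averaged 38.9 ± 1.29 TPM in Aged_NZM and 56.5 ± 2.03 TPM in Aged (log2 change -0.53, SE 0.05, limma adjusted p = 4.95e-06).

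Nampt and Nmnat1 were lower with NZM. Nampt averaged 51.1 ± 3.19 TPM in Aged_NZM and 68.4 ± 0.918 TPM in Aged (log2 change -0.41, SE 0.05, limma adjusted p = 4.98e-05), and Nmnat1 10.6 ± 1.00 TPM in Aged_NZM and 14.3 ± 0.869 TPM in Aged (log2 change -0.40, SE 0.08, limma adjusted p = 0.00134). Of the 9 other salvage and import genes 2 rose and 3 fell, or 4 rose and 1 fell after centring. Among all genes tested 21.6% were called higher and 48.9% lower, or 31.1% higher and 35.4% lower after centring. Among the sirtuins, Sirt6 fell by 0.39 on the log2 scale (limma adjusted p = 1.18e-04) and Sirt7 by 0.34 (limma adjusted p = 6.23e-04), while Sirt2 rose by 0.14 (limma adjusted p = 0.0113). Sirt3, at -0.04 (limma adjusted p = 0.654), did not pass. Cd38 was not tested, since it was under the filter in every BMSC library and listed at 0 in 1 of them.

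Of the 9 genes tested 2 rose and 6 fell, where 70.5% of all 13865 genes tested were called (21.6% higher and 48.9% lower). Among these 9 genes 8 did not overlap between the groups, Sirt3 being the exception, where 73.8% of all genes tested did not. The same 8 genes were called in the same direction after centring, where 66.5% of all genes were called (31.1% higher and 35.4% lower) and rises made up 46.8% of calls in place of 30.7%. The centred changes were -0.79 for Sirt1, 0.80 for Naprt, -0.37 for Parp1, -0.25 for Nampt, -0.24 for Nmnat1, -0.23 for Sirt6, -0.18 for Sirt7 and 0.29 for Sirt2. No call depended on 1 library. Stromal markers also differed between the groups (above), with the chemokine gene Cxcl12 at 675.1 to 685.0 TPM in Aged_NZM and 126.5 to 128.8 TPM in Aged.

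Of 49 other pathway genes tested in BMSC 12 rose, 24 fell and 13 were not called, or 18 rose and 15 fell after centring, with a median of -0.16 where that of all genes was -0.18. The repair partners of Parp1 all fell (8 of 8, and 5 after centring), with Apex1 at 116.9 TPM in Aged_NZM and 220.1 TPM in Aged (log2 change -0.91) and Hpf1, the factor that directs Parp1 to serine residues, at 48.7 TPM in Aged_NZM and 86.9 TPM in Aged (-0.82). The largest fall among the pathway genes was that of Ido2, a tryptophan dioxygenase gene (0.547 TPM in Aged_NZM, 2.49 TPM in Aged, -1.17). The largest rises were those of the mitochondrial ADP-ribose hydrolase gene Macrod1 (80.4 TPM in Aged_NZM and 34.3 TPM in Aged, 1.21), Aox1, an oxidase that clears a nicotinamide metabolite (15.4 TPM in Aged_NZM, 7.71 TPM in Aged, 0.91), and Sod2 (163.0 TPM in Aged_NZM, 102.3 TPM in Aged, 0.67). Of 13 PARP family genes other than Parp1 4 rose and 6 fell, or 6 rose and 3 fell after centring. For comparison, 21.6% of all genes tested were called higher and 48.9% lower, or 31.1% higher and 35.4% lower after centring.

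The NZM response of BMDM minus that of BMSC was tested in 1 fit of all 15 libraries. Cell type and model drug differ together between the 2 arms and cannot be told apart. As deposited, 8 of the 10 genes differed, where 72.0% of 16696 genes did (54.8% positive and 17.2% negative). Cd38 is counted among the 8, but it passed the filter through BMDM alone. With 1 TPM added before the log its BMSC change could only be small, so its difference does not show unlike responses. Parp1 had a difference of 2.51 (SE 0.06, limma adjusted p = 1.20e-13), with a rise in BMDM and a fall in BMSC. Sirt1 (1.38), Sirt7 (1.22), Sirt3 (0.98), Nmnat1 (0.91) and Sirt6 (0.35, limma adjusted p = 0.00693) also had positive differences. For Nampt the difference was -1.55 (SE 0.06, limma adjusted p = 9.30e-12), the fall being larger in BMDM, and for Cd38 it was -4.19, with near-absent BMSC levels on the other side. Naprt (-0.16, limma adjusted p = 0.348) and Sirt2 (0.05, limma adjusted p = 0.270) did not pass.

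Centring moved every difference by -0.62. Parp1 (1.89), Sirt1 (0.75), Sirt7 (0.60), Sirt3 (0.36, limma adjusted p = 0.0491), Nampt (-2.17) and Cd38 (-4.81) kept their sign and call, where 68.6% of all genes were called (28.7% positive and 39.9% negative). Nmnat1 was not called (0.29, limma adjusted p = 0.153), Sirt6 turned to -0.27 (limma adjusted p = 0.0307), and Naprt (-0.79) and Sirt2 (-0.57) were then called.

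**Figure D4:**
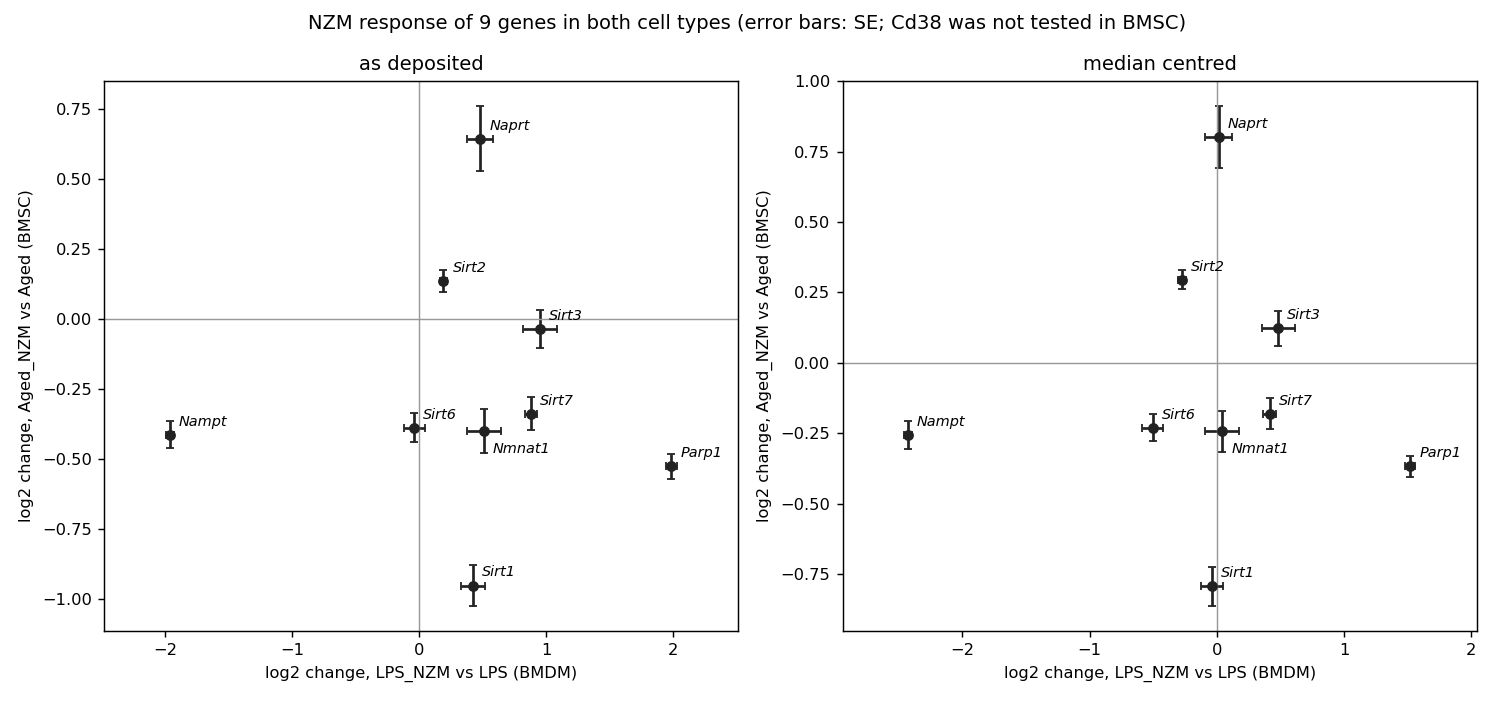
Log2 change of TPM + 1 in LPS_NZM against LPS (BMDM, horizontal axis) and in Aged_NZM against Aged (BMSC, vertical axis) for 9 genes, as deposited (left) and after median centring (right), with SE bars. Parp1 lies right of 0 and below 0 in both panels and Nampt left of 0 and below 0, while Sirt1 lies right of 0 only as deposited.

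Some exons of these genes overlap those of a neighbour in the GENCODE M21 annotation, which limits their values. Sirt3 shares exon bases with Ric8a (418) and Psmd13 (342) on the opposite strand, Sirt2 with Nfkbib (42) on the opposite strand, Naprt with Eef1d (277) and Sirt7 with Mafg (124) on the same strand. Eef1d was more abundant than Naprt in every group, at 152.5 ± 7.03 TPM in LPS_NZM, 81.4 ± 3.45 TPM in LPS, 126.2 ± 7.34 TPM in Control, 170.8 ± 0.837 TPM in Aged_NZM and 252.5 ± 1.38 TPM in Aged. Among the BMDM groups Eef1d and Naprt both had their lowest mean in LPS. Between LPS_NZM and Control they went opposite ways, Eef1d being higher and Naprt lower in LPS_NZM (2.44 TPM, against 3.40 TPM in Control). In BMSC Eef1d was lower and Naprt higher in Aged_NZM than in Aged. Ric8a was at 50.7 ± 0.773 TPM in LPS_NZM, 39.5 ± 1.55 TPM in LPS and 49.9 ± 0.262 TPM in Control, and Psmd13 at 129.2 ± 5.86 TPM in LPS_NZM, 93.5 ± 0.914 TPM in LPS and 114.9 ± 2.04 TPM in Control, both with their lowest mean in LPS, as Sirt3 had. In BMSC both had lower means in Aged_NZM (30.4 TPM for Ric8a and 86.8 TPM for Psmd13) than in Aged (44.2 TPM for Ric8a and 125.1 TPM for Psmd13). Mafg was at 34.8 ± 0.751 TPM in Aged_NZM and 56.1 ± 2.37 TPM in Aged, lower in Aged_NZM as Sirt7 was, and in BMDM at 66.4 ± 2.86 TPM in LPS_NZM, 82.3 ± 2.94 TPM in LPS and 83.4 ± 2.03 TPM in Control. Nfkbib was at 59.9 ± 3.20 TPM in LPS_NZM, 240.8 ± 12.3 TPM in LPS and 37.9 ± 1.43 TPM in Control, highest in LPS, where Sirt2 had its lowest mean of the BMDM groups. The part of shared reads in these values was not tested. How reads in shared bases were assigned is not given in the sources used here.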

How the data were processed

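Polyadenylated RNA of 15 libraries was sequenced as 150-base read pairs from a stranded kit, per the labels' protocols. The authors deposited TPM per Ensembl gene identifier, made with fastp, HISAT2, StringTie and RSEM on GRCm39 per the submitters' processing notes, which give no versions or roles. A name table matched 52072 of 56979 identifiers to symbols. Columns were matched to groups by sample name.

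The scale was log2(TPM + 1). Linear models were fitted in limma (version 3.58.1, R 4.3.3, mean-variance trend, two-sided) for genes of at least 1 TPM in at least 3 libraries of the fit. The 9 BMDM and the 6 BMSC libraries were fitted separately, and all 15 together for the difference of responses. P-values were adjusted (Benjamini-Hochberg) over all genes tested and called under 0.05. The script was tested on simulated data. A permutation test of 3 libraries against 3 could not go below p = 0.1.

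The 10 genes and the pathway and marker lists were chosen with earlier results of these data known. All 10 genes are named, and of 62 other listed pathway genes, 61 with an identifier, the 3 called with the largest rise and the 3 with the largest fall in each comparison, given that the higher of the 2 group means reached 1 TPM. The PARP, Bst1, Polb and Sirt4 and Sirt5 values, single marker genes such as Cxcl12 and the overlapping genes were added outside this rule, after their values were seen. The 3 most similar genes were sought for the 3 genes of widest range, among genes with a mean of at least 5 TPM. Alternatives were median centring, quantile normalization, a pseudocount of 0.1, other filters, no trend, other sample sets, a replicate block and leaving out each library. Figures were drawn with Python 3.11.15. TPM gives no depth, so no counting interval is given.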

Additional observations from a re-analysis of the deposited data

Results flagged for a closer look

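For 8 of the 10 genes the difference of NZM responses between BMDM and BMSC was called by a test of the difference itself (limma, 15 libraries). On the log2(TPM + 1) scale the BMDM response minus the BMSC response was 2.51 for Parp1, 1.38 for Sirt1, 1.22 for Sirt7, 0.98 for Sirt3, 0.91 for Nmnat1, 0.35 for Sirt6, -1.55 for Nampt and -4.19 for Cd38. After median centring 7 of the 8 kept the sign and 6 kept sign and call, the exceptions being Nmnat1, which was no longer called, and Sirt6, which reversed. Cell type and model drug cannot be told apart in this contrast, and 72.0% of all genes tested differed in it. Cd38 is counted among the 8, but its value rests on BMDM and does not show unlike responses, since its BMSC libraries were all under 1 TPM.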

How the results depend on the processing

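Scaling was the choice that moved most results. Of 49 changes of the 10 genes over 5 contrasts, median centring kept direction and side of the threshold in 30 and quantile normalization in 33, whereas a pseudocount of 0.1, no filter and no trend kept all 49. A stricter filter kept all 46 it could test, and fits of only the groups compared all 30 they were run for. In LPS_NZM against Control centring called 6 of the 10 genes in place of 3. Signs turned in LPS against Control for Nmnat1 (0.38 centred, 0.40 quantile) and Sirt2 (0.38 centred). In LPS_NZM against LPS they turned for Sirt1 (-0.041 centred, -0.054 quantile) and Sirt2 (-0.27 centred). In LPS_NZM against Control they turned for Sirt6 (0.075 centred, 0.083 quantile) and Sirt2 (-0.0063 quantile), in Aged_NZM against Aged for Sirt3 (0.12 centred, 0.11 quantile), and in the difference of responses for Sirt2 (-0.57 centred, -0.28 quantile) and Sirt6 (-0.27 centred, -0.24 quantile). The cause was not tested.

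Without 1 library, 341 of 354 refitted changes kept direction and side of the threshold. The Sirt6 change ranged from -0.020 to 0.10 in LPS against Control, from -0.11 to 0.0065 in LPS_NZM against LPS and from -0.061 to 0.049 in LPS_NZM against Control, and the Sirt3 change in Aged_NZM against Aged from -0.080 to 0.0074. Cd38, Nampt and Parp1 kept direction and call in LPS against Control and in LPS_NZM against LPS under every alternative, with Cd38 between 5.37 and 5.99 in the first and between -4.86 and -4.36 in the second.

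The labels give no pairing, and the correlation of same-numbered libraries' deviations from the group means ran from -0.0756 to 0.199. It was over 0.1 for 2 of the 3 pairs of LPS_NZM and Control and for no pair of the other comparisons. With the replicate number as a block, 8, 9, 3 and 8 of the 10 genes were called in LPS against Control, LPS_NZM against LPS, LPS_NZM against Control and Aged_NZM against Aged, as without it. Depth is unknown, which limits most what can be said of Cd38 in BMSC and of Naprt.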
